A study of Homo sapiens with 12 samples.

Results

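The genes described here are interferon response genes, a list of 37 symbols chosen with earlier results of these data known. Of these, 35 were measured in both expression tables of the study. The 35 are part of 16591 genes measured in RWPE1 cells and 16922 genes measured in VCaP cells. Where a gene had several probes, its value is that of the probe with the highest mean over the arrays of the table. STAT2 and HERC6 were also on the list and were not analysed here.

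The study asked what the ETS transcription factor ERG does to gene expression in prostate cells, with Illumina bead arrays. RWPE1, a non-cancerous prostate epithelial line immortalised with a human papillomavirus, was transfected with a GFP-ERG fusion construct and sampled at 72 h and at 48 h, or with GFP alone and sampled at 72 h and at 48 h. VCaP, a prostate cancer line that carries the TMPRSS2-ERG gene fusion, received a lentiviral ERG shRNA, or a scramble shRNA, and both were selected with puromycin. Each of the 6 groups has 2 arrays. The design text speaks of duplicate transfections, and no label ties an array to its own culture, so p-values measure the spread between these arrays, which may be technical. Both RWPE1 groups carry a GFP construct, the labels used here do not name the promoter that drives it, and untransfected RWPE1 cells were not analysed here.

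Cells that sense foreign nucleic acid through receptors such as IFIH1 secrete type I interferon (IFNB1) and type III interferons (IFNL1 to IFNL3). Interferon bound to its receptor activates JAK kinases, which drive STAT proteins with IRF9 to a DNA element called the ISRE. The genes behind that element encode antiviral effectors, among them OAS enzymes, IFIT proteins, MX GTPases and the ubiquitin-like ISG15, and epithelial cells can make and answer interferon without immune cells.

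The promoters below are shown because they hold letters that match elements known from interferon response genes, and use of these matches in these cells was not tested. Sequences are those of RefSeq on GRCh38.p14, and 28 of the 35 measured genes had an entry. The 250 bases before each gene start were searched on both strands for the ISRE core GAAANNGAA, which 21 of the 28 held, as did 8.41% of the 27305 genes with a promoter sequence. RSAD2 and ISG20 were taken by rule, as genes with a match among the 6 largest falls with time in GFP cells. IFNB1, IFIT1 and ISG15 were chosen after their values were seen. Capitals mark ISRE core matches in RSAD2, ISG20, IFIT1 and ISG15, shown as the reverse complement where they lie on the opposite strand. In IFNB1, which has no match to the core in this window, capitals mark an IRF site (AAGTGAAAG) and an NF-kappaB site (GGGAAATTC), the kinds of site through which sensing switches this gene on. The IFNB1 stretch, chr9:21077975-21078043 on the minus strand, runs from 101 to 33 bases before the start of the gene.
IFNB1: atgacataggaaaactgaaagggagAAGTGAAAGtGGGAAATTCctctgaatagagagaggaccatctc
RSAD2 (first start, chr2:6865781-6865839, plus strand): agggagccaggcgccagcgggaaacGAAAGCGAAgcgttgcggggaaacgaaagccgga
RSAD2 (second start, chr2:6877608-6877666, plus strand): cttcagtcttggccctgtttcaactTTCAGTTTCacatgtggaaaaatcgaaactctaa
ISG20 (chr15:88638922-88638980, plus strand): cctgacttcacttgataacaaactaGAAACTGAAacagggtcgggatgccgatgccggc
IFIT1 (chr10:89392483-89392554, plus strand): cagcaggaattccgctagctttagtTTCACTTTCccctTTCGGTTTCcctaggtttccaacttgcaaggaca
ISG15 (chr1:1013359-1013429, plus strand): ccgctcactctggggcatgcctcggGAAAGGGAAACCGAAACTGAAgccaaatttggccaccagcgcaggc
A match describes these letters and is not evidence of binding. The ISG15 stretch holds 3 matches that overlap, and IFIT1 holds 2. The IRF site occurs upstream of 0.538% of all genes and, among the 28, only of IFNB1. The NF-kappaB site occurs upstream of 0.436% of all genes and, among the 28, of IFNB1 and OAS3. The GAS element, where STAT dimers bind, was searched as TTCNNNGAA and occurred in 10 of the 28 genes against 8.09% of all genes. The ETS core AGGAAG, the type of site that ERG binds, occurred in 9 of the 28 genes against 32.9% of all genes.

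All values below are on a log2 scale of signal, read as such from their range, and a difference of 1 is a doubling. The number of arrays limits the precision. The median probe stood at 7.23 to 7.24 on each RWPE1 array and at 7.75 on each VCaP array. The keratins of basal prostate epithelium, KRT5 and KRT14, read 13.21 to 14.38 on the RWPE1 arrays, while the basal keratin KRT15 read 7.16 to 7.60, near the median probe, and the luminal keratin KRT8 read 10.76 to 11.28. On the VCaP arrays the luminal genes KLK2 and TMPRSS2 read 12.22 to 13.73, KRT8 9.22 to 9.32, KLK3 8.25 to 9.02 and KRT18 8.28 to 8.68. Of 11 leukocyte markers measured in RWPE1, the pan-leukocyte gene PTPRC lay between 6.80 and 7.01, below the median probe. Between 1 and 2 of the 11 lay above the median probe of each array. They were CD68, at 11.01 to 12.38, and in GFP-ERG cells also CD14, at 7.91 to 8.21. One ERG probe separated the RWPE1 groups, with 6.93 and 6.94 in GFP-ERG cells at 72 h, 7.33 and 7.29 in GFP-ERG cells at 48 h, 6.36 and 6.25 in GFP cells at 72 h, and 6.30 and 6.43 in GFP cells at 48 h. These levels are near the bottom of the scale, and the other ERG probe lay between 6.834 and 7.005 on all 8 arrays. In VCaP the brightest ERG probe read 8.71 and 8.77 on the arrays labelled ERG shRNA, against 8.35 and 8.33 on the scramble arrays, which goes against that label.

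Interferon response genes were at high levels on every RWPE1 array. The median over the 35 genes was 12.10 and 12.07 on the GFP-ERG arrays at 72 h, 12.26 and 12.26 on the GFP-ERG arrays at 48 h, 11.86 and 11.85 on the GFP arrays at 72 h, and 12.40 and 12.39 on the GFP arrays at 48 h. Between 34 and 35 of the 35 lay above the median probe of each array. The exception was IRF7, at 7.19 to 7.47. In VCaP the median over the same genes was 7.64 on both arrays labelled ERG shRNA, against 7.70 and 7.69 on the scramble arrays, and 7 to 15 genes lay above the median probe. The tables were normalised apart, so no level is compared between the lines.

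**Figure D1:**
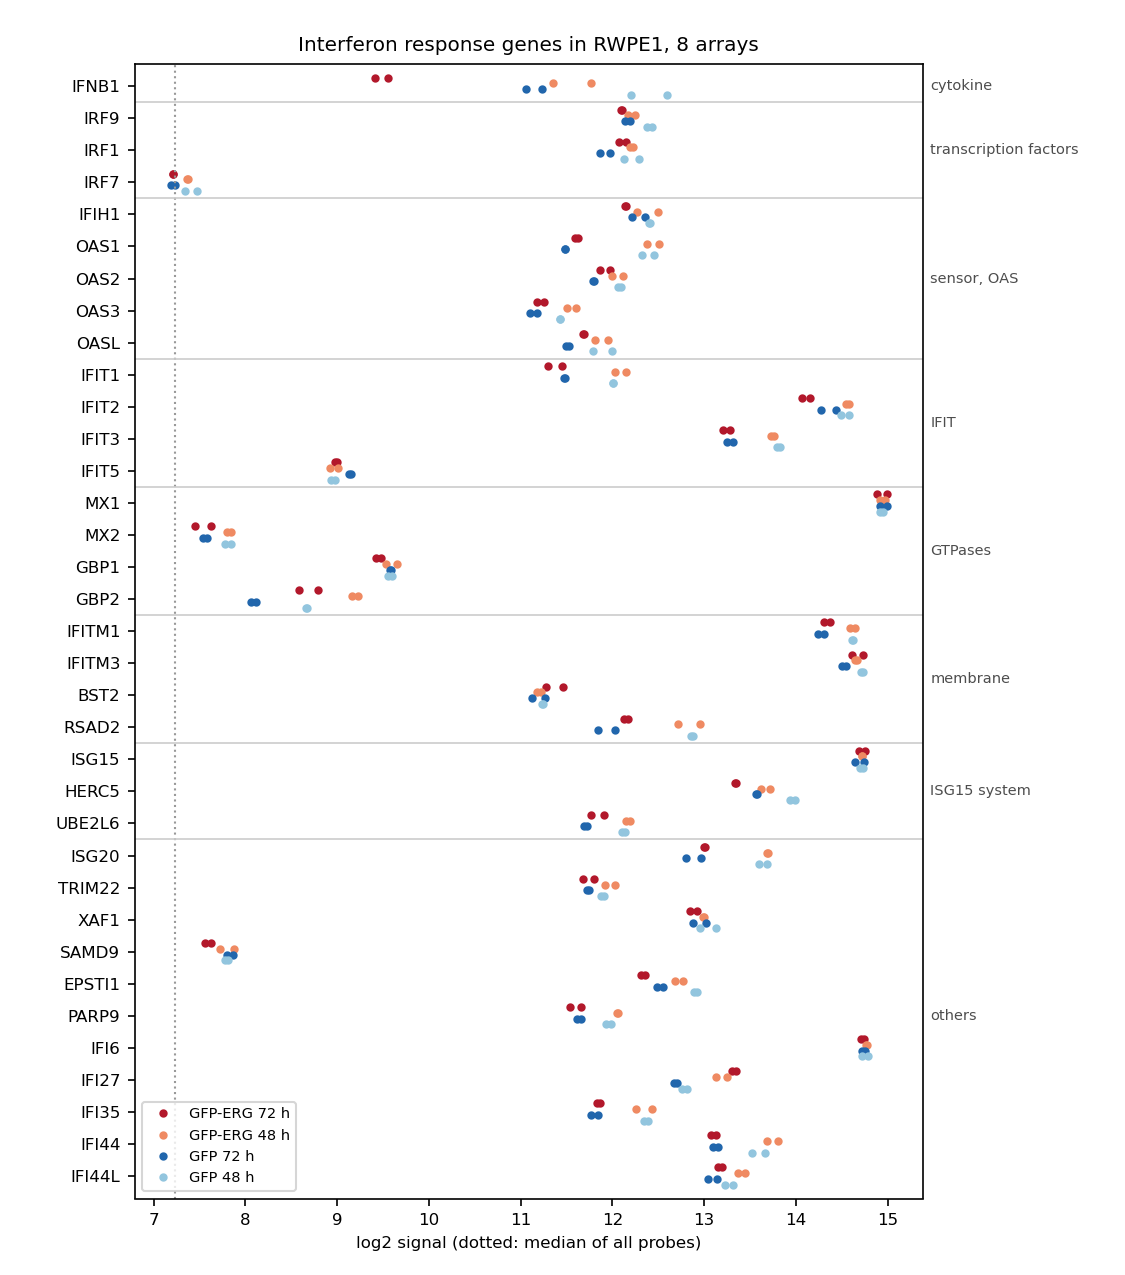
Levels of the 35 interferon response genes in RWPE1 by role, with 1 point per array on a log2 signal axis and the groups GFP-ERG 72 h, GFP-ERG 48 h, GFP 72 h and GFP 48 h. Most genes lie well above the median of all probes (dotted), and MX1, ISG15, IFI6, IFITM1, IFITM3 and IFIT2 lie above 14 on all 8 arrays.

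The first question was how these genes stood at 72 h against 48 h in each construct. In GFP-ERG cells 21 of the 35 fell and 0 rose, with a median change of -0.24, against 0.00 for all genes. In GFP cells 22 of 35 fell and 1 rose, with a median change of -0.28, against 0.01 for all genes. A gene counts as changed at an adjusted p below 0.05 (limma, Benjamini-Hochberg over all genes of the table). By that rule 12.6% of all genes fell and 13.1% rose in GFP-ERG cells, and 11.2% fell and 11.8% rose in GFP cells. The list was chosen with earlier results of these data known, so its counts describe these arrays and are no independent test. By size of the log2 change the falls came in the order IFNB1, OAS1, IFIT1, ISG20 and RSAD2 in GFP-ERG cells, and IFNB1, RSAD2, OAS1, ISG20 and GBP2 in GFP cells. In both constructs 16 genes fell. In bulk RNA, fewer cells that express a gene and less of its RNA per cell cannot be told apart.

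IFNB1 is the only interferon on the list. It read 9.56 and 9.41 in GFP-ERG cells at 72 h, 11.77 and 11.36 in GFP-ERG cells at 48 h, 11.05 and 11.23 in GFP cells at 72 h, and 12.59 and 12.21 in GFP cells at 48 h. Both GFP-ERG arrays at 72 h lay below all others, both GFP arrays at 48 h lay above all others, and no groups overlapped. With time IFNB1 fell by 2.08 (SE 0.11, 4.22-fold) in GFP-ERG cells, the largest fall of the 16591 genes, with an adjusted p of 2.74e-11 (limma). In GFP cells it fell by 1.25 (SE 0.11, 2.39-fold), which ranked 5 from the lowest, with an adjusted p of 5.83e-08 (limma). With GFP-ERG it was lower by 1.66 at 72 h and by 0.84 at 48 h, with adjusted p of 1.8e-09 and 2.94e-05 (limma). The promoter of this gene is the first sequence printed above.

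The fall with time was larger in GFP-ERG cells. The difference between the constructs was -0.82 (SE 0.16, 95% interval -1.16 to -0.49), with an adjusted p of 0.0202 (limma, interaction term). IFNB1 was the only one of the 35 to pass that test, in which 0.271% of all genes passed as lower and 0.205% as higher. This call ended in 6 of 14 alternatives. They were normexp background correction and trended, robust eBayes, where the adjusted p was 0.450 and 0.343, and the fits without GFP 48 h array 2, GFP 72 h array 2, GFP-ERG 48 h array 1 or GFP-ERG 72 h array 2, where it was 0.190, 0.202, 0.0855 and 0.0910 (limma).

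The other interferon genes were 20 from a list of pathway genes. Of these, 5 fell with time in GFP-ERG cells and 5 fell in GFP cells, and they were the same genes, IFNL1, IFNL2, IFNL3, IFNK and IFNE. IFNL1, a type III interferon of epithelia, read 7.64 and 7.60 in GFP-ERG cells at 72 h, 8.45 and 8.53 in GFP-ERG cells at 48 h, 7.85 and 7.96 in GFP cells at 72 h, and 9.16 and 9.08 in GFP cells at 48 h. Its groups came in the same order as those of IFNB1 for the highest and the lowest, and none overlapped. It fell by 0.87 with time in GFP-ERG cells and by 1.21 in GFP cells, and it was lower with GFP-ERG by 0.29 at 72 h and by 0.63 at 48 h (limma, adjusted p = 0.00962 and 9.23e-07).

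IFNL2 fell by 0.99 with time in GFP-ERG cells and by 1.03 in GFP cells. It was lower with GFP-ERG by 0.69 at 72 h and by 0.73 at 48 h. IFNL3 fell by 0.63 in GFP-ERG cells and by 0.77 in GFP cells, and it was lower with GFP-ERG by 0.32 at 72 h and by 0.46 at 48 h. IFNL2 and IFNL3 are near-identical copies whose probes may not tell them apart, so the values of each are uncertain. IFNK, an interferon of keratinocytes, fell by 0.82 in GFP-ERG cells and by 0.67 in GFP cells, and IFNE, an interferon of epithelia, by 0.65 and by 0.56 in the same order. Neither passed the test of GFP-ERG against GFP at either time. At 72 h IFNE lay below the median probe, with 7.06 and 7.03 in GFP-ERG cells and 7.03 and 6.96 in GFP cells. The remaining 15, namely the interferon alpha genes, IFNW1 and IFNG, lay between 6.02 and 6.83 on all 8 arrays, below the median probe.

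**Figure D2:**
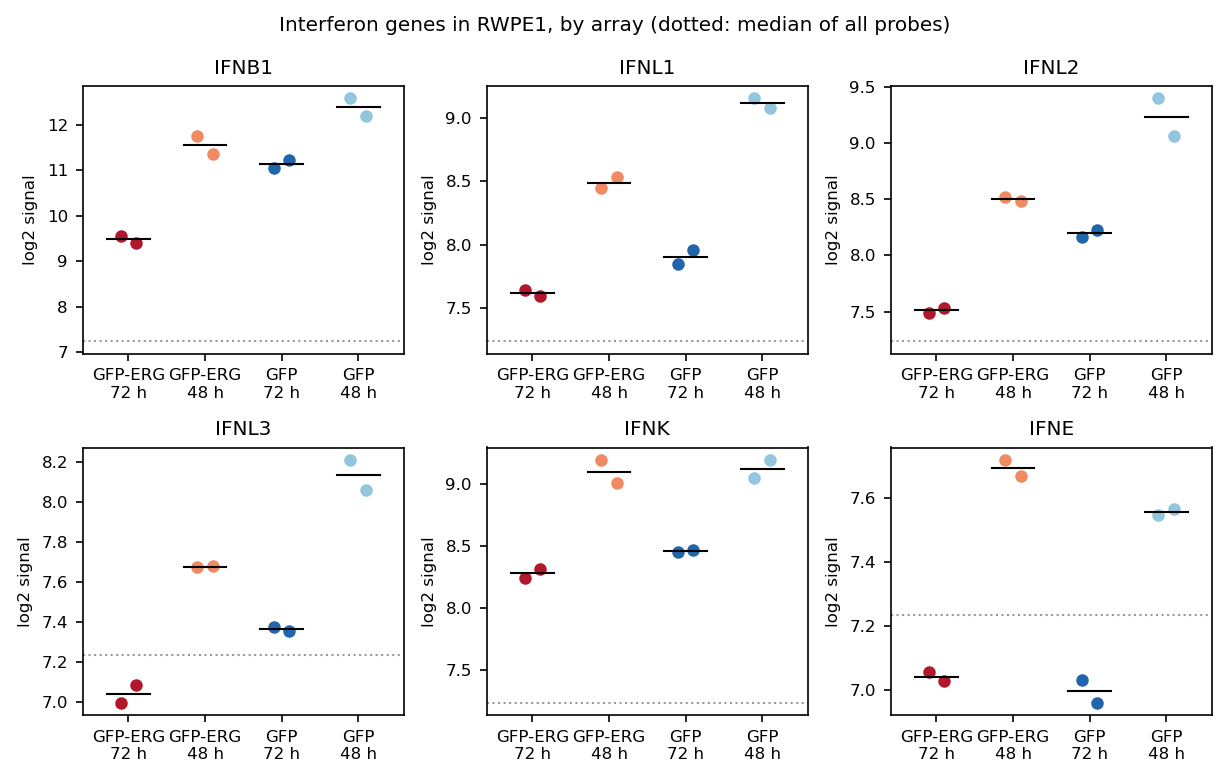
Log2 signal of IFNB1, IFNL1, IFNL2, IFNL3, IFNK and IFNE on the 8 RWPE1 arrays, with 1 point per array, the group mean as a line and the median of all probes dotted. Each gene is lower at 72 h than at 48 h within each construct, and IFNB1, IFNL1, IFNL2 and IFNL3 are also lower in GFP-ERG cells than in GFP cells at the same time.

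The transcription factors of the response were IRF9, IRF1 and IRF7. IRF9, which joins STAT proteins at the ISRE, read 12.10 and 12.09 in GFP-ERG cells at 72 h, 12.24 and 12.17 in GFP-ERG cells at 48 h, 12.19 and 12.14 in GFP cells at 72 h, and 12.43 and 12.38 in GFP cells at 48 h. It fell by 0.24 with time in GFP cells (limma, adjusted p = 0.00715), and its change in GFP-ERG cells was -0.11 (adjusted p = 0.256). IRF1, a target of interferon gamma signalling, fell by 0.29 in GFP cells. IRF7, which amplifies interferon production, fell by 0.20 in GFP cells at a level next to the median probe. In GFP-ERG cells the changes of IRF1 and IRF7 were -0.10 and -0.15 and did not pass.

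Sensing and the OAS enzymes came next. OAS enzymes make 2-5A, which activates the nuclease RNase L. OAS1 read 11.59 and 11.62 in GFP-ERG cells at 72 h, 12.38 and 12.51 in GFP-ERG cells at 48 h, 11.48 and 11.49 in GFP cells at 72 h, and 12.32 and 12.45 in GFP cells at 48 h. The arrays split by time and not by construct. It fell by 0.84 (SE 0.07) in GFP-ERG cells and by 0.91 (SE 0.07) in GFP cells, with adjusted p of 9.78e-09 and 4.03e-09 (limma). All 3 probes of OAS1 fell in both constructs.

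OAS3 fell by 0.34 in GFP-ERG cells and by 0.29 in GFP cells. OAS2 fell by 0.28 in GFP cells and its change in GFP-ERG cells was -0.14, while a dimmer OAS2 probe fell by 0.29 in GFP-ERG cells, so the OAS2 probes differed in which construct passed. OASL, a catalytically inactive relative that aids RIG-I signalling, fell by 0.38 in GFP cells, and its change of -0.20 in GFP-ERG cells did not pass (limma, adjusted p = 0.0552). IFIH1, the RNA sensor MDA5, fell by 0.24 in GFP-ERG cells, and its change of -0.13 in GFP cells did not pass (adjusted p = 0.276).

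The IFIT genes encode proteins that bind foreign RNA, and IFIT2, IFIT3, IFIT1 and IFIT5 lie close together on chromosome 10. IFIT1 read 11.45 and 11.30 in GFP-ERG cells at 72 h, 12.15 and 12.03 in GFP-ERG cells at 48 h, 11.48 and 11.48 in GFP cells at 72 h, and 12.002 and 12.001 in GFP cells at 48 h. It fell by 0.72 (SE 0.07) in GFP-ERG cells and by 0.52 (SE 0.07) in GFP cells, with adjusted p of 8.47e-08 and 6.83e-06 (limma). IFIT2 read 14.07 and 14.15 in GFP-ERG cells at 72 h, 14.58 and 14.54 in GFP-ERG cells at 48 h, 14.28 and 14.43 in GFP cells at 72 h, and 14.58 and 14.49 in GFP cells at 48 h. Its lowest arrays were those of GFP-ERG at 72 h. It fell by 0.45 in GFP-ERG cells, while its change of -0.18 in GFP cells did not pass (limma, adjusted p = 0.0705).

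IFIT5 was the 1 gene of the 35 that rose with time, by 0.19 in GFP cells (limma, adjusted p = 0.0328). It read 9.15 and 9.13 in GFP cells at 72 h, against 8.93 and 8.97 in GFP cells at 48 h, and 8.93 to 9.01 on the 4 GFP-ERG arrays. The 2 probes of IFIT3 moved in opposite directions. The brighter, with a mean level of 13.52, fell by 0.51 in GFP-ERG cells and by 0.52 in GFP cells. The dimmer, with a mean level of 9.88 and annotated to another transcript record, rose by 0.41 in GFP-ERG cells and by 0.31 in GFP cells, and it was higher with GFP-ERG by 0.44 at 72 h and by 0.35 at 48 h. When the probes of a gene were averaged, IFIT3 no longer passed with time, at -0.05 in GFP-ERG cells and -0.11 in GFP cells (limma, adjusted p = 0.679 and 0.297).

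Among the GTPases, MX1 blocks RNA viruses, MX2 acts on HIV, and the guanylate-binding proteins GBP1 and GBP2 coat pathogens. MX1 lay between 14.88 and 14.99 on all 8 arrays, near the top of the scale, and its changes were -0.01 in GFP-ERG cells and 0.02 in GFP cells. MX2, at 7.45 to 7.85, fell by 0.28 in GFP-ERG cells and by 0.25 in GFP cells. GBP2 read 8.79 and 8.58 in GFP-ERG cells at 72 h, 9.22 and 9.17 in GFP-ERG cells at 48 h, 8.06 and 8.11 in GFP cells at 72 h, and 8.67 and 8.66 in GFP cells at 48 h. It fell by 0.51 in GFP-ERG cells and by 0.58 in GFP cells (limma, adjusted p = 1.25e-05 and 2.9e-06). Its neighbour GBP1 did not pass in either construct, with changes of -0.14 and 0.01.

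The membrane proteins on the list were RSAD2, IFITM1, IFITM3 and BST2. RSAD2, or viperin, makes an RNA chain terminator. It read 12.13 and 12.17 in GFP-ERG cells at 72 h, 12.95 and 12.71 in GFP-ERG cells at 48 h, 12.03 and 11.85 in GFP cells at 72 h, and 12.86 and 12.88 in GFP cells at 48 h. All 72 h arrays lay below all 48 h arrays. RSAD2 fell by 0.68 (SE 0.08) in GFP-ERG cells and by 0.93 (SE 0.08) in GFP cells, with adjusted p of 1.01e-06 and 2.05e-08 (limma).

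IFITM1, which blocks viral entry, fell by 0.28 in GFP-ERG cells and by 0.35 in GFP cells, at levels of 14.24 to 14.64. Its neighbour IFITM3 fell by 0.20 in GFP cells and changed by 0.02 in GFP-ERG cells without passing. The IFITM genes are close in sequence, so signal of one on the probe of another cannot be told apart. BST2, or tetherin, which holds budding virions at the cell surface, changed by 0.16 in GFP-ERG cells and -0.04 in GFP cells and did not pass.

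ISG15 is a ubiquitin-like protein, UBE2L6 its conjugating enzyme and HERC5 its ligase. ISG15 lay between 14.64 and 14.75 on all 8 arrays and did not pass in either construct. HERC5 read 13.34 and 13.35 in GFP-ERG cells at 72 h, 13.72 and 13.62 in GFP-ERG cells at 48 h, 13.57 and 13.57 in GFP cells at 72 h, and 13.93 and 13.98 in GFP cells at 48 h. It fell by 0.33 in GFP-ERG cells and by 0.39 in GFP cells (limma, adjusted p = 0.000546 and 9.64e-05). UBE2L6 fell by 0.33 in GFP-ERG cells and by 0.41 in GFP cells. The mean of its 2 probes, of which the second lay below the median probe, no longer passed in GFP-ERG cells (-0.13, limma, adjusted p = 0.143).

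Of the 11 remaining genes, 8 fell in GFP-ERG cells and 5 fell in GFP cells. ISG20, an exonuclease that degrades RNA, read 13.01 and 13.00 in GFP-ERG cells at 72 h, 13.68 and 13.69 in GFP-ERG cells at 48 h, 12.80 and 12.97 in GFP cells at 72 h, and 13.69 and 13.60 in GFP cells at 48 h. It fell by 0.68 in GFP-ERG cells and by 0.76 in GFP cells (limma, adjusted p = 1.71e-07 and 5.11e-08). IFI44, a neighbour of IFI44L on chromosome 1, fell by 0.64 in GFP-ERG cells and by 0.47 in GFP cells. IFI35 fell by 0.50 and by 0.57, the ADP-ribosyltransferase family member PARP9 by 0.46 and by 0.32, and EPSTI1 by 0.39 and by 0.38, with GFP-ERG cells first in each pair. TRIM22, an antiviral ubiquitin ligase, SAMD9 and IFI44L fell by 0.23, 0.21 and 0.24 in GFP-ERG cells. Their changes in GFP cells, -0.16, 0.04 and -0.18, did not pass. XAF1, IFI6 and IFI27 did not pass in either construct.

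**Figure D3:**
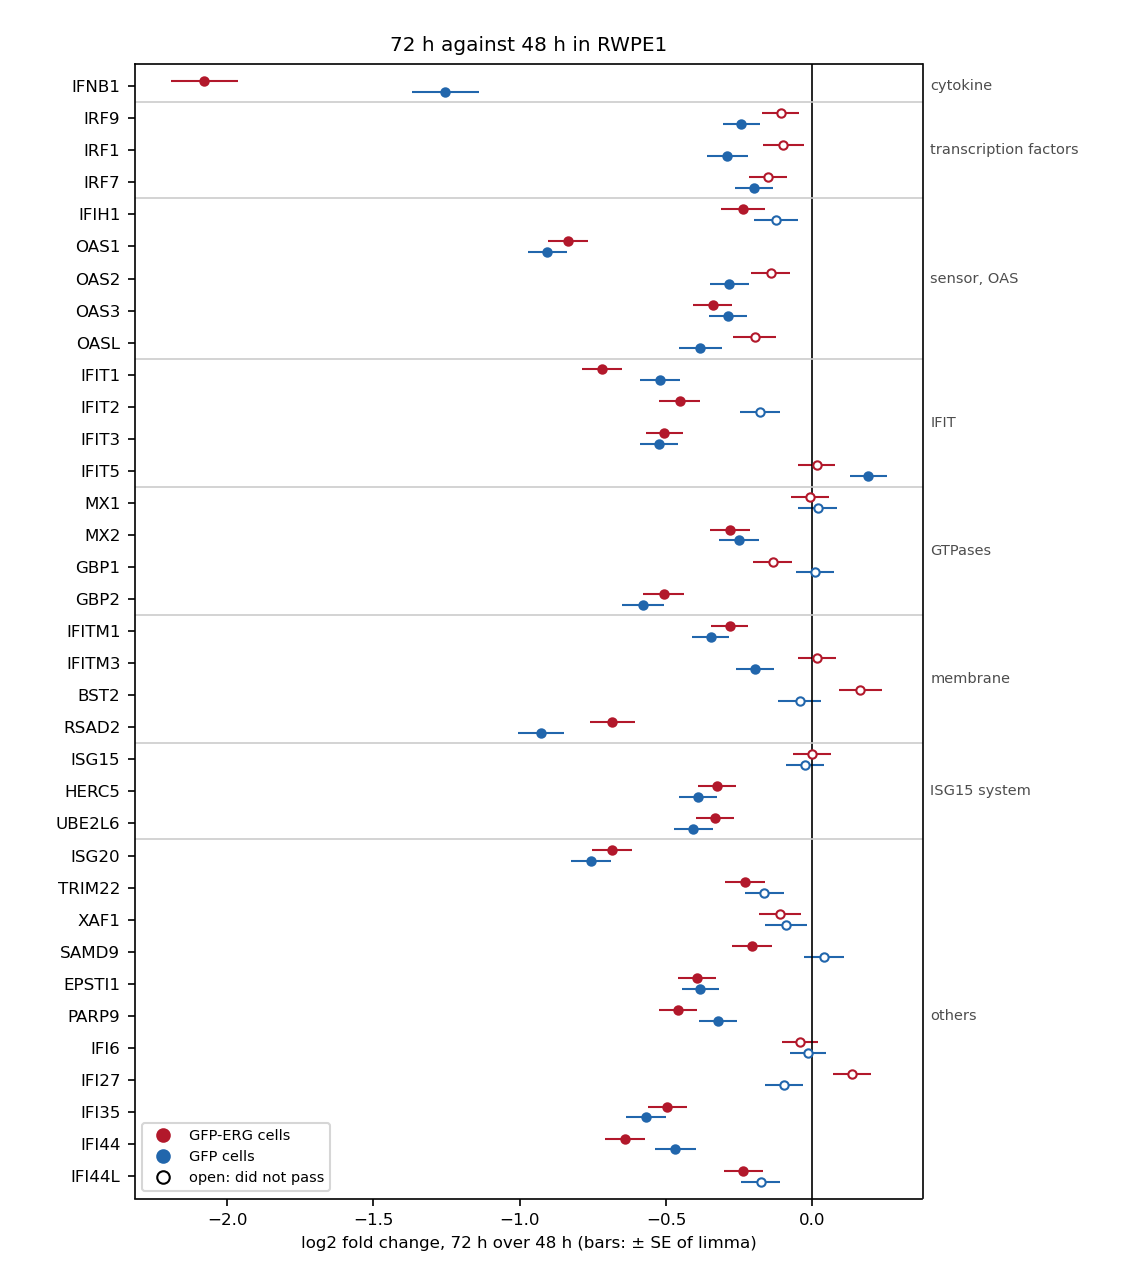
Log2 fold change of 72 h over 48 h for the 35 interferon response genes in GFP-ERG cells and in GFP cells, with bars of 1 SE and open points where the change did not pass. IFNB1 stands apart at -2.08 and -1.25, and 31 of the 35 estimates are below 0 in each construct.

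By the threshold, 5 genes fell in GFP-ERG cells alone (IFIH1, IFIT2, TRIM22, SAMD9 and IFI44L) and 6 in GFP cells alone (IRF9, IRF1, IRF7, OAS2, OASL and IFITM3). None of these 11 differed between constructs by the test of the difference, where the smallest adjusted p among them was 0.326, for IFIT2 (limma). The 7 genes that changed in neither were MX1, GBP1, BST2, ISG15, XAF1, IFI6 and IFI27. The highest value in the RWPE1 table was 15.15. Of the 6 genes above 14 on all 8 arrays, 2 fell in each construct, against 19 of the other 29 in GFP-ERG cells and 20 of the other 29 in GFP cells. The part of signal saturation in this was not tested.

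Falls with time were also set beside the promoters. Of the 21 genes with an ISRE core, 11 fell in GFP cells and the median change was -0.20. Of the 7 genes with a promoter sequence and no such match, 6 fell and the median was -0.41. These 7 were IFNB1, IRF9, IRF1, OAS1, UBE2L6, XAF1 and IFI35, and XAF1 was the one that did not pass. RSAD2, with a match before each of its starts, fell by 0.93 in GFP cells. ISG15, with 3 overlapping matches, changed by -0.02. Of all genes 11.2% fell in GFP cells. MX1, ISG15, IFI6, IFITM1 and IFITM3, which lay above 14 on all 8 arrays, were among the 21, and their part in the median was not tested. The search for the ISRE took only the core pattern in 250 bases, so a gene without a match may still hold such an element. No difference between genes with and without a match was tested.

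Markers of cell types also moved with time. Of all genes 12.6% fell and 13.1% rose in GFP-ERG cells, and 11.2% fell and 11.8% rose in GFP cells. Of 5 basal markers, 3 rose and 1 fell in GFP-ERG cells, with changes from -1.12 to 1.23. In GFP cells 2 of the 5 rose and 2 fell, with changes from -1.07 to 1.05. In GFP-ERG cells 1 of 11 leukocyte markers and 2 of 6 endothelial markers fell, 2 of 7 fibroblast markers rose and 1 fell, and 1 of 4 luminal markers rose. In GFP cells 1 of 11 leukocyte and 2 of 6 endothelial markers fell, and 2 of 7 fibroblast and 2 of 4 luminal markers rose. The collagen gene COL1A1 and the proteoglycan gene DCN rose in both constructs, by 0.55 and 0.24 in GFP-ERG cells and by 0.61 and 0.44 in GFP cells, and the luminal keratin KRT8 rose by 0.43 and by 0.35. The leukocyte marker that fell was CD68, a lysosomal protein that epithelial cells can also make. It read 11.29 and 11.19 in GFP-ERG cells at 72 h, 12.37 and 12.38 in GFP-ERG cells at 48 h, 11.01 and 11.19 in GFP cells at 72 h, and 12.23 and 12.30 in GFP cells at 48 h. The median of the 11 markers lay between 6.68 and 6.80 on all 8 arrays. Of the 8 housekeeping genes measured, 3 rose and 1 fell in GFP-ERG cells, and 2 rose and 2 fell in GFP cells. The part of these markers in the falls of the members was not tested. The part of culture time and of time since transfection in these falls cannot be told apart.

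The second question was how GFP-ERG cells stood against GFP cells. These comparisons share their arrays with those of time. At 72 h 2 of the 35 genes were higher, GBP2 and IFI27, and 4 were lower, IFNB1, HERC5, IFIT2 and SAMD9, with a median of 0.00, as for all genes. At 48 h the same 2 genes were higher and IFNB1 and HERC5 were lower, again with a median of 0.00. Over both times GBP2 and IFI27 were higher and IFNB1, HERC5 and EPSTI1 lower, with a median of 0.01. Among all genes 3.19% were higher and 3.01% lower at 72 h, 4.86% and 3.93% at 48 h, and 6.82% and 5.68% over both times, so the shares of members, apart from the lower ones at 72 h, were near those of all genes.

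GBP2 was higher with GFP-ERG by 0.60 (SE 0.07, 1.52-fold) at 72 h and by 0.53 (SE 0.07, 1.44-fold) at 48 h, with adjusted p of 4.6e-06 and 2.17e-05 (limma). Both GFP-ERG arrays lay above both GFP arrays at each time. IFI27, a mitochondrial protein that is among the common blood markers of an interferon response, read 13.35 and 13.30 in GFP-ERG cells at 72 h, 13.13 and 13.25 in GFP-ERG cells at 48 h, 12.70 and 12.67 in GFP cells at 72 h, and 12.76 and 12.81 in GFP cells at 48 h. All 4 GFP-ERG arrays lay above all 4 GFP arrays. The difference was 0.64 (SE 0.07, 1.56-fold) at 72 h and 0.40 (SE 0.07, 1.32-fold) at 48 h, with adjusted p of 6.05e-07 and 0.000207 (limma).

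HERC5 was lower with GFP-ERG by 0.22 at 72 h and by 0.29 at 48 h, with adjusted p of 0.0381 and 0.00483 (limma). IFIT2 and SAMD9 were each lower by 0.24 at 72 h, with adjusted p of 0.0363 and 0.0362 (limma), and neither passed at 48 h. EPSTI1 passed only over both times, at -0.18 (limma, adjusted p = 0.00883). The 72 h count came to 3 genes, in place of 6, after normexp background correction and in the fits without GFP-ERG 72 h array 1, GFP-ERG 72 h array 2 or GFP 72 h array 2.

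**Figure D4:**
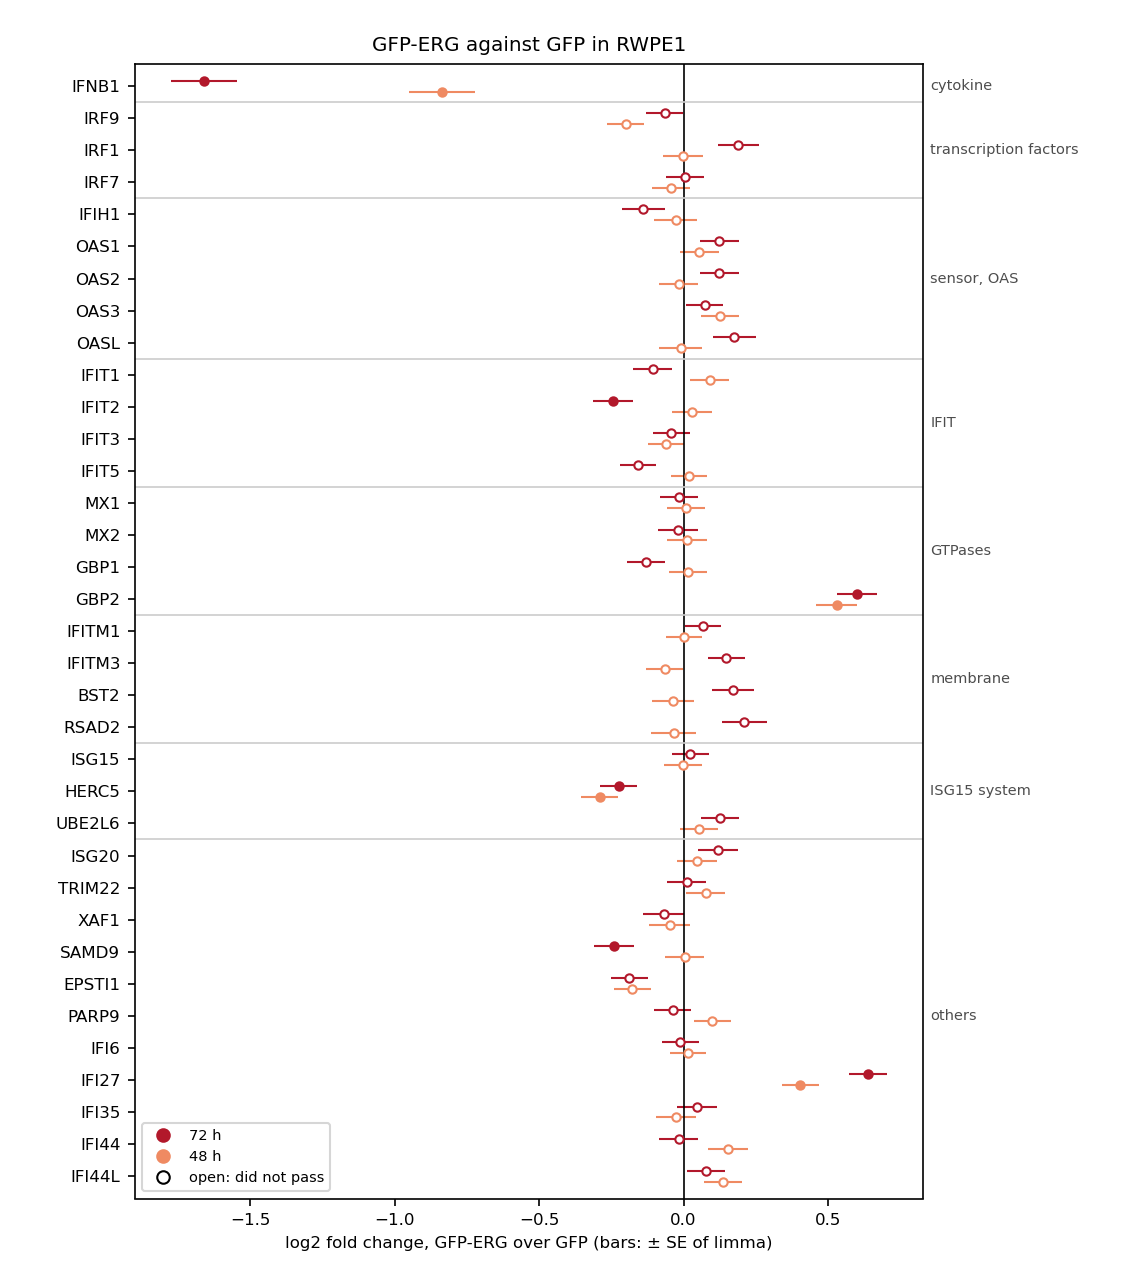
Log2 fold change of GFP-ERG over GFP for the 35 interferon response genes at 72 h and at 48 h, with bars of 1 SE and open points where the difference did not pass. IFNB1 lies at -1.66 and -0.84, GBP2 at 0.60 and 0.53 and IFI27 at 0.64 and 0.40, and the other estimates lie between -0.29 and 0.21.

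Markers of other cells also moved with GFP-ERG. Of all genes 3.19% were higher and 3.01% lower at 72 h, and 4.86% were higher and 3.93% lower at 48 h. CD14, a monocyte marker, was the 1 of 11 leukocyte markers to rise, with 7.997 and 8.05 in GFP-ERG cells at 72 h, 7.91 and 8.21 in GFP-ERG cells at 48 h, 7.02 and 6.91 in GFP cells at 72 h, and 7.02 and 7.09 in GFP cells at 48 h. Of 6 endothelial markers, TEK and CLDN5 were higher with GFP-ERG at each time and lower at 72 h in each construct. Of 7 fibroblast markers DCN was lower with GFP-ERG at 72 h, by 0.36. Their part in the results was not tested.

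The rest of the interferon pathway was described by 115 further genes, of which 109 were measured in RWPE1. With time 36 fell and 9 rose in GFP-ERG cells, and 39 fell and 9 rose in GFP cells, with medians of -0.06 and -0.10. Of all genes 12.6% fell and 13.1% rose in GFP-ERG cells, and 11.2% fell and 11.8% rose in GFP cells. With GFP-ERG 14 of the 109 were higher and 5 lower at 72 h, where 3.19% of all genes were higher and 3.01% lower. At 48 h 13 of the 109 were higher and 5 lower, where 4.86% of all genes were higher and 3.93% lower. None of the 109 passed the test of the difference between constructs in the time effect (limma).

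Of 10 receptors and kinases measured, 3 rose and 1 fell with time in GFP-ERG cells, and 2 rose and 3 fell in GFP cells. IFNGR1, a chain of the interferon gamma receptor, read 12.59 and 12.61 in GFP-ERG cells at 72 h, 11.61 and 11.65 in GFP-ERG cells at 48 h, 12.51 and 12.58 in GFP cells at 72 h, and 11.60 and 11.52 in GFP cells at 48 h. It rose by 0.97 in GFP-ERG cells and by 0.98 in GFP cells. IFNAR1, a chain of the type I receptor, rose by 0.39 and by 0.43, and its partner IFNAR2 by 0.27 in GFP-ERG cells. JAK2 fell by 0.27 in GFP-ERG cells. JAK1, TYK2 and IL10RB fell by 0.37, 0.20 and 0.27 in GFP cells. IFNGR2, IFNLR1 and STAT3 did not pass with time in either construct.

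Of 19 sensing genes 8 fell in each construct. DHX58, a regulator of the RNA sensors, fell by 0.77 in GFP-ERG cells and by 0.54 in GFP cells, and the nucleic acid sensor ZBP1 fell by 0.51 and by 0.59. AIM2, a DNA sensor of the inflammasome, rose by 1.03 and by 0.73. STING1, the adaptor of cytosolic DNA sensing, read 10.03 and 9.97 in GFP-ERG cells at 72 h, 10.45 and 10.41 in GFP-ERG cells at 48 h, 9.51 and 9.51 in GFP cells at 72 h, and 9.78 and 9.70 in GFP cells at 48 h. All 4 GFP-ERG arrays lay above all 4 GFP arrays, by 0.49 at 72 h and by 0.69 at 48 h (limma, adjusted p = 1.73e-05 and 1.28e-07). The NF-kappaB subunit gene RELA was higher with GFP-ERG at 48 h, by 0.43.

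Among 28 further effectors measured, 12 fell in GFP-ERG cells and 14 fell in GFP cells. BATF2 fell by 0.93 in GFP-ERG cells and by 0.63 in GFP cells, and CMPK2, a nucleotide kinase, by 0.62 and by 0.60. TNFSF10, the death ligand TRAIL, rose by 0.63 and by 0.72. Among 18 genes of antigen presentation, 5 fell in GFP-ERG cells and 6 in GFP cells, with HLA-E lower by 0.61 and by 0.55. HLA genes are close in sequence, and their probes may not tell them apart. Of 9 genes measured from a list of feedback on the response, 3 fell and 2 rose with time in GFP-ERG cells, and 1 fell and 1 rose in GFP cells. With GFP-ERG 1 was higher and 1 lower at 72 h, and 2 were higher and 0 lower at 48 h. USP18, which removes ISG15 from proteins and dampens the type I receptor, fell by 0.39 with time in GFP-ERG cells and was lower with GFP-ERG by 0.37 at 72 h. PIAS1 was higher with GFP-ERG by 0.30 at 72 h and by 0.28 at 48 h. At 72 h 5 of the 18 presentation genes were higher with GFP-ERG, led by HLA-F at 0.48 and TAPBP, which loads peptides, at 0.46.

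The chemokines differed from each other. CCL5, which draws T cells, read 8.60 and 8.58 in GFP-ERG cells at 72 h, 9.24 and 9.18 in GFP-ERG cells at 48 h, 9.03 and 9.08 in GFP cells at 72 h, and 10.03 and 9.94 in GFP cells at 48 h. It fell by 0.62 with time in GFP-ERG cells and by 0.93 in GFP cells, and it was lower with GFP-ERG by 0.46 at 72 h and by 0.77 at 48 h (limma, adjusted p = 4.22e-05 and 2.81e-08). CXCL11 also fell with time, by 0.63 and by 0.82, but was higher with GFP-ERG by 0.57 at 72 h and by 0.38 at 48 h. CXCL10, which shares a receptor with CXCL11, was higher with GFP-ERG by 0.66 at 72 h. With time CXCL10 rose in GFP-ERG cells, from a mean of 11.89 at 48 h to 12.32 at 72 h. In GFP cells its means were 11.73 and 11.66 in the same order, and the change did not pass. CCL2, which draws monocytes, was higher with GFP-ERG by 1.13 at 72 h and by 0.71 at 48 h, and it rose with time by 0.78 in GFP-ERG cells and by 0.37 in GFP cells.

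The third question was the effect of the ERG shRNA in VCaP cells. IFNB1 lay between 7.48 and 7.53 on the 4 VCaP arrays, below the median probe. On the arrays labelled ERG shRNA 4 of the 35 genes were lower and 0 were higher, with a median difference of -0.01, against 0.00 for all genes. Among all genes 1.81% were lower and 1.68% higher (limma, Benjamini-Hochberg). The 4 were IFITM3, UBE2L6, IFI6 and ISG15. Of 5 luminal markers 1 was lower on the arrays labelled ERG shRNA, KLK3, the gene of prostate-specific antigen, with 8.40 and 8.25 there against 9.02 and 9.02 on the scramble arrays, and its part in the result was not tested. Because the brightest ERG probe was higher on these arrays, no direction of ERG is drawn from them.

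IFITM3 read 7.56 and 7.56 on the arrays labelled ERG shRNA, against 8.29 and 8.46 on the scramble arrays, a difference of -0.82 (SE 0.07, 1.76-fold, limma, adjusted p = 0.0376). UBE2L6 read 7.78 and 7.71 on the arrays labelled ERG shRNA, against 8.37 and 8.39 on the scramble arrays, a difference of -0.63 (SE 0.04, limma, adjusted p = 0.0313). The 4 arrays split by label in both genes. IFITM3 and IFI6 lay below the median probe on both arrays labelled ERG shRNA, and UBE2L6 on array 2 of that label. IFI6, a mitochondrial survival protein, read 7.67 and 7.67 on the arrays labelled ERG shRNA, against 8.19 and 8.23 on the scramble arrays, a difference of -0.54 (SE 0.03, limma, adjusted p = 0.0313). ISG15 read 7.86 and 7.82 on the arrays labelled ERG shRNA, against 8.30 and 8.41 on the scramble arrays, a difference of -0.51 (SE 0.05, limma, adjusted p = 0.048).

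IFIH1 was next, with 7.83 and 7.74 on the arrays labelled ERG shRNA, against 8.23 and 8.15 on the scramble arrays, and its difference of -0.40 did not pass (limma, adjusted p = 0.0663). IRF9 and HERC5 had positive estimates, 0.17 and 0.14, and did not pass (adjusted p = 0.159 and 0.378). Most other members lay between the bottom of the scale and the median probe, where a lower level could not be seen. The 2 further UBE2L6 probes and the further IFI6 probe, all dimmer, did not pass. All 4 calls ended with the array number as a replicate block, where the adjusted p lay between 0.0902 and 0.112 (limma). All 4 also ended without scramble array 1, where it was 0.251 to 0.255, or without scramble array 2, where it was 0.319 to 0.320. Without ERG shRNA array 2 the calls of IFITM3 and ISG15 ended, at 0.0505 and 0.0685. After normexp background correction the differences were -2.66 for IFITM3, -1.69 for UBE2L6, -1.68 for IFI6 and -1.29 for ISG15, and with the mean of probes UBE2L6 and IFI6 stood at -0.28 and -0.30, all of which passed.

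**Figure D5:**
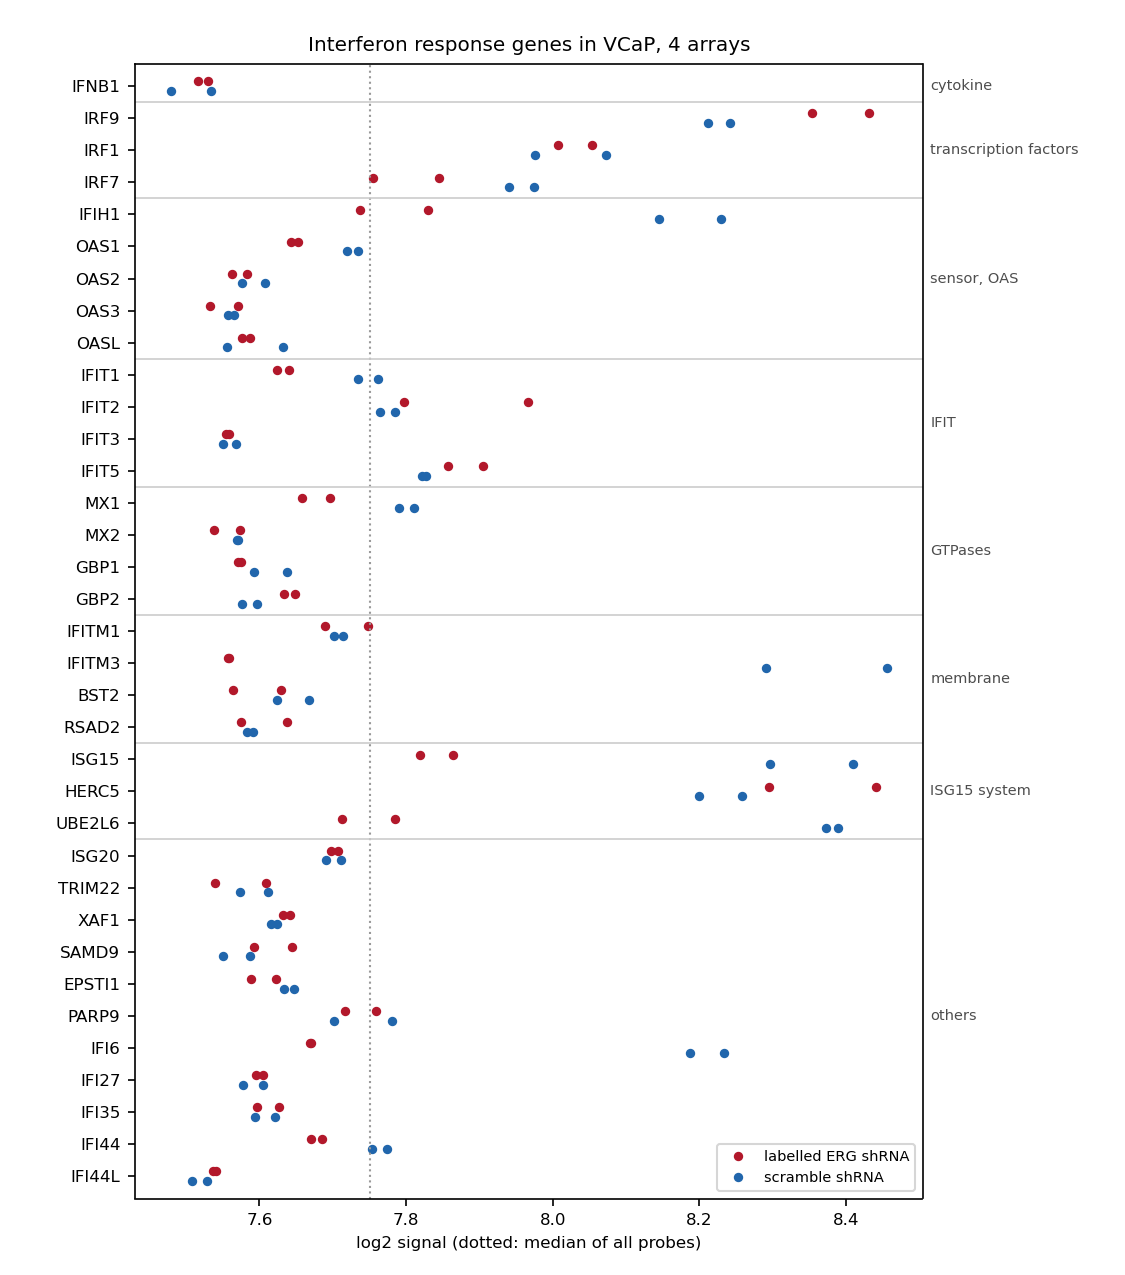
Levels of the 35 interferon response genes in VCaP by role, with 1 point per array on a log2 signal axis and the arrays labelled ERG shRNA drawn above the scramble arrays of each gene. Most genes lie near the bottom of the scale at or below the median of all probes (dotted), and IFITM3, UBE2L6, IFI6 and ISG15 are lower on both arrays labelled ERG shRNA.

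Of 107 further pathway genes measured in VCaP, 6 were lower and 2 higher on the arrays labelled ERG shRNA. Of all genes 1.81% were lower and 1.68% higher there, so the share of higher ones was near that of all genes. PSMB10, a subunit of the immunoproteasome, read 8.35 and 8.49 on the arrays labelled ERG shRNA, against 9.94 and 10.11 on the scramble arrays, a difference of -1.61 (SE 0.09, limma, adjusted p = 0.0293). PSME2, a proteasome activator subunit, was lower by 0.99, the secreted glycoprotein LGALS3BP by 1.08 and IFITM2, a close relative of IFITM3, by 0.69. SP110 and IFNAR2 were lower by 0.51 and 0.35. WARS1, a tRNA synthetase induced by interferon gamma, was higher by 0.56, and JAK1 by 0.48. As for the members, all 8 of these calls ended with the array number as a replicate block and without either scramble array, where 0 genes of the table passed (limma, smallest adjusted p 0.0899, 0.251 and 0.319). The VCaP and RWPE1 comparisons share no arrays and were fitted apart, and no difference between them was tested.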

How the data were processed

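Gene expression was measured on Illumina bead arrays in RWPE1 (8 arrays) and VCaP (4 arrays). The deposited values are on a log2 scale, as read from their range, and neither the scale nor the normalisation was stated in the labels or headers. Sorted from low to high, the values of each array lay within 0.0391 (RWPE1) and 0.000211 (VCaP) of their mean over arrays, so the deposited log2 values have nearly the same distribution on every array. Probes were named through the platform annotation, which gave 1 symbol to 18332 of 20589 RWPE1 probes and to 21833 of 24525 VCaP probes, and none to the others. The brightest probe stood for its gene.

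Each table was fitted on its own in limma 3.58.1 (R 4.3.3) with 1 mean per group, all arrays sharing the spread, on the values as deposited and with no filter on dim genes. Tests were two-sided, p-values were adjusted by Benjamini-Hochberg across the whole table with a threshold of 0.05, and 7 comparisons were made. The fits, apart from the mean over both times, were tested on simulated data with 200 known changes. In the RWPE1 comparisons of 2 groups 86% to 89% of changes of 0.5 and 100% of changes of 1 were recovered. In the difference of the time effect these shares were 57.5% and 98.5%, and in VCaP they were 0% and 66.5%. A gene that did not pass in VCaP or in that difference may thus still have changed. Between 0 and 15 unchanged genes were called per simulation. Changes smaller than 0.5, which many members had, were not simulated. With time 3820 genes were called in GFP cells and 4276 in GFP-ERG cells, far more than the 200 simulated, so recovery in the data may differ. The members and lists were chosen with earlier results of these data known. Every member could be named, and of each other pathway list up to 4 genes per comparison, those with the largest changes that passed, with the receptors and kinases whatever their values. CD68, CD14, TEK, CLDN5, COL1A1, DCN, KRT8 and KLK3 fall outside that rule and were named after their values were seen. Alternatives were the mean of a gene's probes, a filter on dim genes, trended and robust eBayes, quantile normalisation, normexp with an offset of 16, the array number as a block, each array left out, and fits of only the 2 groups compared. The search for the IRF and NF-kappaB sites and the fit of each probe were chosen after seeing the data. Promoters came from RefSeq, GRCh38.p14. Figures were drawn with matplotlib 3.10.9.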

Additional observations from a re-analysis of the deposited data

Results flagged for a closer look

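The fall of IFNB1 with time differed between the constructs, with a difference of -0.82 between its change in GFP-ERG cells (-2.08) and its change in GFP cells (-1.25), by the test of the difference itself (limma, adjusted p = 0.0202). Over 14 alternatives the difference ranged from -1.03 to -0.62, and 8 of the 14 passed the threshold.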

How the results depend on the processing

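The falls of IFNB1 with time (-2.28 to -1.87 in GFP-ERG cells and -1.45 to -1.06 in GFP cells) and its lower level with GFP-ERG (-1.75 to -1.57 at 72 h and -1.04 to -0.63 at 48 h) passed in all 15 alternatives, and the falls of OAS1, RSAD2 and ISG20 in both constructs did too. None of the 64 single calls of members changed direction under any of these alternatives, and direction was not checked for other values. With normexp 477 of all genes differed with GFP-ERG at 72 h (1029 in the values reported), 679 at 48 h (1459), 1229 over both times (2074) and 6 in the difference of the time effect (79). With it the count of members was 3 at 72 h and 0 in that difference, and trended, robust eBayes also gave 0 in that difference. In VCaP normexp gave 1817 of all genes, trended, robust eBayes 1705 and the filter on dim genes 1005, against 591. The cause was not tested. With the array number as a replicate block 0 members and 0 genes passed in VCaP, where the smallest adjusted p was 0.0899 (limma), while members in RWPE1 were 21 (time, GFP-ERG), 23 (time, GFP), 6 (72 h), 4 (48 h) and 1 (difference). The deviations of equally numbered arrays correlated at -0.0571 to 0.0776 in RWPE1, where no pairing showed, and at 0.190 in the single pair of VCaP. No label says what the numbers stand for.

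With 1 array left out at a time, the lone array being assumed to vary like the other groups, members called were 16 to 22 (time, GFP-ERG), 18 to 23 (time, GFP), 3 to 6 (72 h), 3 to 4 (48 h), 5 to 7 (both times), 0 to 1 (difference) and 0 to 5 (VCaP). All genes called were 3152 to 4238, 2545 to 4101, 532 to 1228, 798 to 1399, 1542 to 2194, 32 to 144 and 0 to 2254 in the same order. The lowest came without GFP-ERG 72 h array 1, GFP 48 h array 1, GFP 72 h array 2, GFP 48 h array 1, GFP 72 h array 2, GFP 72 h array 2 and either scramble array, where 0 genes passed (smallest adjusted p 0.251 and 0.319, limma). Of 64 single calls of members, 14 ended with normexp, 3 with the mean of probes, 4 with the block, 1 with trended, robust eBayes and 0 with the filter on dim genes or quantile normalisation.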
